A study of Homo sapiens with 4 samples.

Results

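The genes described here are named ZNF plus a number, the family name given to human genes whose proteins hold zinc fingers, and were expressed in RCM‐1 cells at a signal of at least 100. The genes were chosen by their measured signal. Each was represented by its brightest probe set with a single gene symbol, and it was kept where the mean log2 signal over the 4 arrays was at least log2(100). Of 425 ZNF genes measured, 112 (26.4%) reached this floor, against 40.6% of all 19775 genes measured. Since the floor was set on the same arrays, the level of the 112 genes is not a result.

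The RCM‐1 line was derived from human rectal tissue, a well‐differentiated adenocarcinoma, and forms domes, which are blisters of the cell sheet over fluid that the cells have moved beneath it. Nearly confluent cells were given 1 mM methylthioacetic acid (MTA), a small sulphur compound. It was left on the cells during 6, 12 or 18 h, and vehicle medium (0.1% acetonitrile) took its place until up to 24 h after the start. The control is labelled 0 h and had no MTA. By the paper's description of its control, it was given the solvent, acetonitrile at 0.1%. The sources do not say plainly how long this culture was held before harvest. There is 1 array for each time and no replicate, so no test was made, no p‐value is given, and differences have no replicate check. Each time compares 1 culture with the same 0 h culture, in which fewer cells with a transcript and less transcript per cell cannot be told apart. The time with MTA and the time since its removal vary together and cannot be told apart.

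Most ZNF genes encode transcription factors with tandem C2H2 zinc fingers, small folds held by a zinc ion in which each finger reads a few bases of DNA. The largest human subfamily carries a KRAB domain, which binds the corepressor TRIM28 and, through it, the histone methyltransferase SETDB1, and many of its members silence retroelements. A large share of these genes lies in clusters on chromosome 19. The name also covers proteins with other work, such as ribosome assembly, mitosis and RNA binding. Domains could not be read from sequences here, so KRAB genes are named only from a list taken from textbook knowledge.

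Of the 112 genes, 84 had a signal of at least 100 on every array and 28 lay below it on at least 1. ZNF211, ZNF311, ZNF697, ZNF711 and ZNF91 were below 100 on the 0 h array and passed through their later arrays, so that a positive ratio of these 5 is partly set by the floor. On the 18 h array 22 genes were below 100, and a negative ratio of these can likewise be partly set by the floor. Just inside the floor, the mean signals of ZNF91, ZNF678 and ZNF600 were 100.3, 100.7 and 101, and just outside it those of ZNF710, ZNF250 and ZNF700 were 96.4, 94.6 and 94.3. Of the 313 ZNF genes outside, 14 had a 0 h signal of at least 100.

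The arrays differ in overall level, which bears on every ratio. Over the 8022 genes at the floor the log2 ratios to 0 h had medians of 0.08 (6 h), −0.32 (12 h) and −0.52 (18 h). The spiked poly‐A controls had mean log2 ratios of 0.20, 0.03 and −0.25. A gene is therefore given by its log2 ratio with the deposited scaling and by its shift, which is that ratio minus the median of all genes. The 3′ to 5′ signal ratio of GAPDH lay between 1.44 and 1.64, and that of ACTB was 5.76, 4.76, 5.86 and 6.45 at 0, 6, 12 and 18 h. The ACTB ratio was thus lowest at 6 h and highest at 18 h, and its part in the ratios of the genes was not tested. Of 11 markers of intestinal epithelium 10 were at the floor, and none of 11 measured markers of fibroblasts, immune cells and endothelium.

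As a family the ZNF genes followed the other genes. At 6, 12 and 18 h their log2 ratios had medians of 0.11, −0.28 and −0.41, against 0.08, −0.32 and −0.53 over the 7910 other genes at the floor. The ZNF median thus lay above that of the other genes by 0.04, 0.04 and 0.12 on the log2 scale. The value at 18 h was 0.03 without probe sets whose names end in _s_at or _x_at and 0.05 with the floor on the 0 h array, and with quantile normalization those at 6 and 12 h were −0.04 and −0.02. With the arrays divided by their trimmed mean, or with the ratios centred or quantile normalized, the ZNF median at 18 h was above 0 (0.11, 0.12 and 0.09), so the sign of the family's own change depends on the scaling. At 18 h the middle 50% of ZNF genes lay between −0.81 and −0.09, and that of the other genes between −0.86 and −0.19. Of the ZNF genes 65 of 112 (58.0%) were above the median of the other genes at 18 h.

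**Figure D1:**
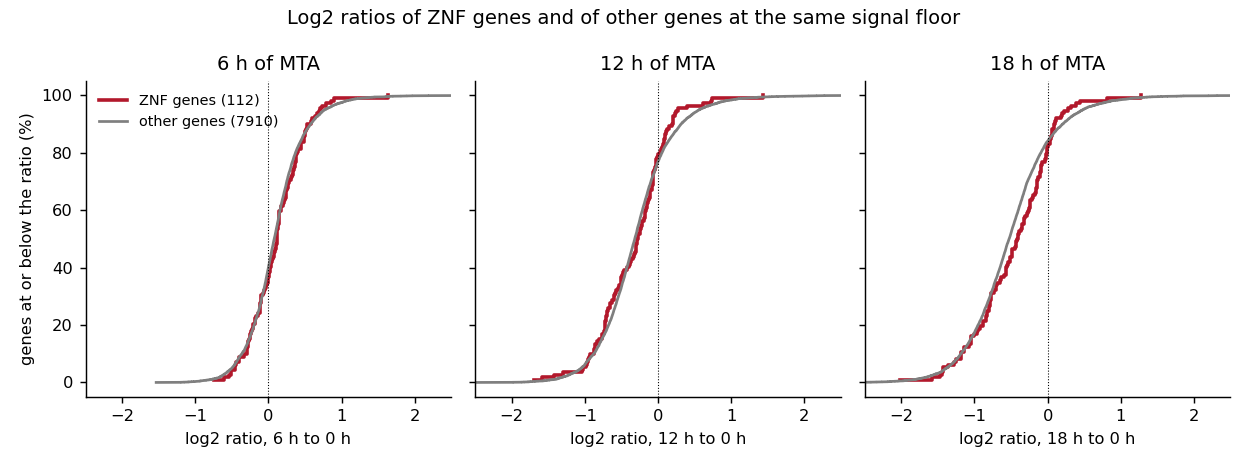
Cumulative percent of genes (vertical axis) at or below each log2 ratio to 0 h (horizontal axis) at 6, 12 and 18 h of MTA, for the 112 ZNF genes (red) and the 7910 other genes at the same signal floor (grey). The curves run close together, and at 18 h the red one lies to the right of the grey one around the median, −0.41 against −0.53.

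Few ZNF genes passed a 2‐fold difference (a log2 ratio beyond 1) upward and about as many as among all genes passed it downward. At 18 h 19 of 112 (17.0%) had a log2 ratio below −1, where 17.3% of all 8022 genes did, and only ZNF711 (0.893%) was above 1, where 1.51% of all genes were. At 12 h 6 ZNF genes (5.36%) were below −1, against 6.23% of all genes, and ZNF711 was again the only one above 1, against 1.6%. At 6 h none was below −1, against 0.349% of all genes, and ZNF711 was above 1, against 2.47%. At a stricter log2 ratio of 1.5, ZNF367 and ZNF746 were below −1.5 at 18 h (1.79%, against 3.18% of all genes) and none was above 1.5 (against 0.449%). At 12 h ZNF142 and ZNF367 were below −1.5 (1.79%, against 0.773%) and none was above 1.5 (against 0.499%). At 6 h ZNF711 was above 1.5 (0.893%, against 0.548%) and none was below −1.5 (against 0.0125%). These shares lie near the background and are no result about the family.

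The course over time was close to that of all genes too. The most common pattern was a signal above 0 h at 6 h and below it at 12 and 18 h, in 42 ZNF genes (37.5%, against 36.0% of all genes). In 40 (35.7%, against 39.1%) the signal was below that of 0 h at all 3 times, and in 14 (12.5%, against 14.0%) above it. The 18 h array was the lowest of the 4 for 72 ZNF genes (64.3%, against 71.7%) and the 6 h array the highest for 65 (58.0%, against 53.6%). In 74 (66.1%, against 74.6%) the ratio was lower at 12 h than at 6 h and lower again at 18 h. These signs take the deposited scaling. Over 6 scalings of the arrays, 45 ZNF genes were below 0 h at 18 h in all of them and 20 above it in all, and for 47 the sign depended on the scaling. These counts were not made over all genes, so they have no background and show no trait of the family.

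Genes of equal signal were compared in 4 bins of mean signal. In the dimmest bin, from 100 to 200, the 56 ZNF genes had a median log2 ratio at 18 h of −0.38 and the 1980 other genes −0.41. From 200 to 400 it was −0.36 for 33 ZNF genes and −0.54 for 2086 others, and from 400 to 800 it was −0.49 for 14 and −0.59 for 1739. Above 800 the order was the other way round, with −0.88 for 9 ZNF genes and −0.56 for 2105 others. Of these 9, ZNF639, ZNF770, ZNF511, ZNF706 and ZNF207 lay between −1.25 and −0.88, ZNF664 had −0.57, and ZNF121, ZNF503 and ZNF217 had −0.49, −0.15 and −0.08.

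**Figure D2:**
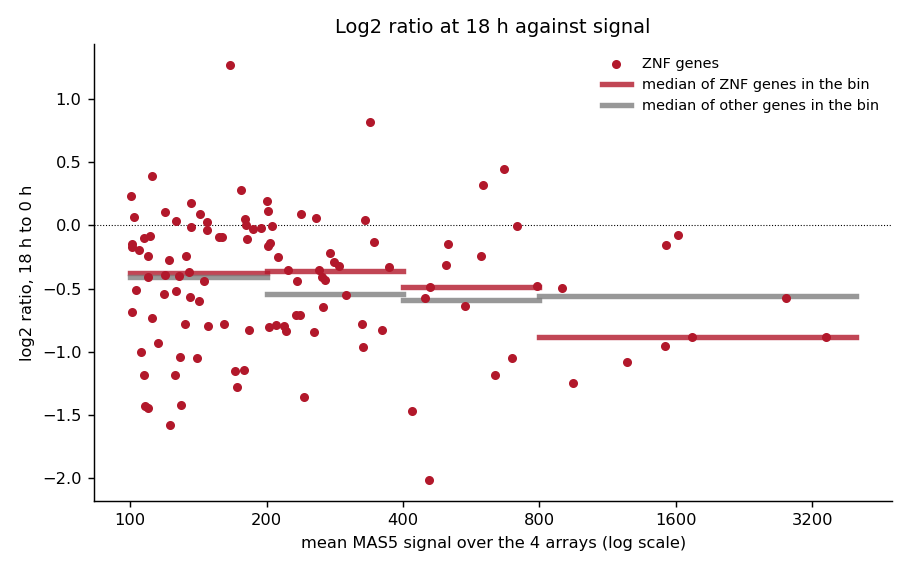
Log2 ratio at 18 h to 0 h (vertical axis) against the mean MAS5 signal over the 4 arrays (horizontal axis, log scale), with a red point for each of the 112 ZNF genes and horizontal bars at the bin medians of the ZNF genes (red) and of the other genes (grey). The red bar lies above the grey one below 800 and under it above 800, at −0.88 against −0.56.

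The 6 brightest were not alike. ZNF706, a small protein with a single zinc finger, had signals of 4585, 3869.7, 3166 and 2481 at 0, 6, 12 and 18 h, a log2 ratio of −0.89 at 18 h. ZNF207, known as BuGZ, which brings the checkpoint protein BUB3 to kinetochores, had 2371, 1942, 1537 and 1284, and −0.88. Both were lower with each longer exposure. ZNF511 did likewise, with 2033, 1725, 1434 and 1051, and −0.95. ZNF217, a transcriptional repressor that is amplified in several carcinomas, had 1568, 2016, 1453 and 1486, and was thus high on the 6 h array only. ZNF503, a corepressor known from the developing mouse brain, had 1362, 2048, 1563 and 1224. The 18 h ratios of ZNF217 and ZNF503, −0.08 and −0.15, change sign with the scaling, and their shifts were 0.45 and 0.37. ZNF664 had 3161, 3244, 2806 and 2127, a ratio of −0.57 that lay at the median of all genes, with a shift of −0.05.

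Among the 112 genes ZNF367 stood lowest at 18 h. ZNF367, a C2H2 transcription factor, had signals of 886, 818, 273 and 219 at 0, 6, 12 and 18 h, log2 ratios of −0.12, −1.70 and −2.02. Its signal was nearly the same at 0 and 6 h and low on the 2 later arrays. Over the 6 scalings its ratio at 18 h ran from −2.02 to −1.47. A single probe set at the floor measured it, of the _x_at kind, whose probes can also match related transcripts.

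ZNF746 and ZNF593 came next. ZNF746, the KRAB protein PARIS, which represses the gene of the coactivator PGC‐1α, had 208, 146, 106 and 69.6, a log2 ratio of −1.58 at 18 h and a shift of −1.06. ZNF593, whose yeast counterpart Bud20 acts in export of the large ribosomal subunit, had 767, 459, 312 and 277, a ratio of −1.47 and a shift of −0.95. Unlike ZNF367, both were already lower at 6 h, by log2 ratios of −0.52 and −0.74.

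ZNF142, ZNF689, ZNF800 and ZNF32 had ratios between −1.44 and −1.36 at 18 h. ZNF800, a repressor that holds back enteroendocrine differentiation in human intestinal organoids, had 210.1, 159.8, 106 and 78.3, and was lower on each later array. ZNF142 had 206, 135, 68.3 and 75.5, and ZNF689 had 191, 140.3, 71.2 and 71.1, with little between 12 and 18 h. A second probe set of ZNF689 had −0.97 at 18 h in place of −1.43. ZNF639, ZNF738, ZNF26, ZNF394 and ZNF326 completed the 12 lowest, from −1.28 to −1.18. For ZNF639, with signals of 1447, 1052, 873 and 609, a second probe set had −1.35 beside −1.25. All 12 ratios stayed below 0 in each of the 6 scalings. Of these 12, ZNF746, ZNF142, ZNF689, ZNF800, ZNF26 and ZNF394 had signals below 100 on the 18 h array. They passed the floor through earlier arrays, so their place is partly set by the floor, which a scaling does not test.

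**Figure D3:**
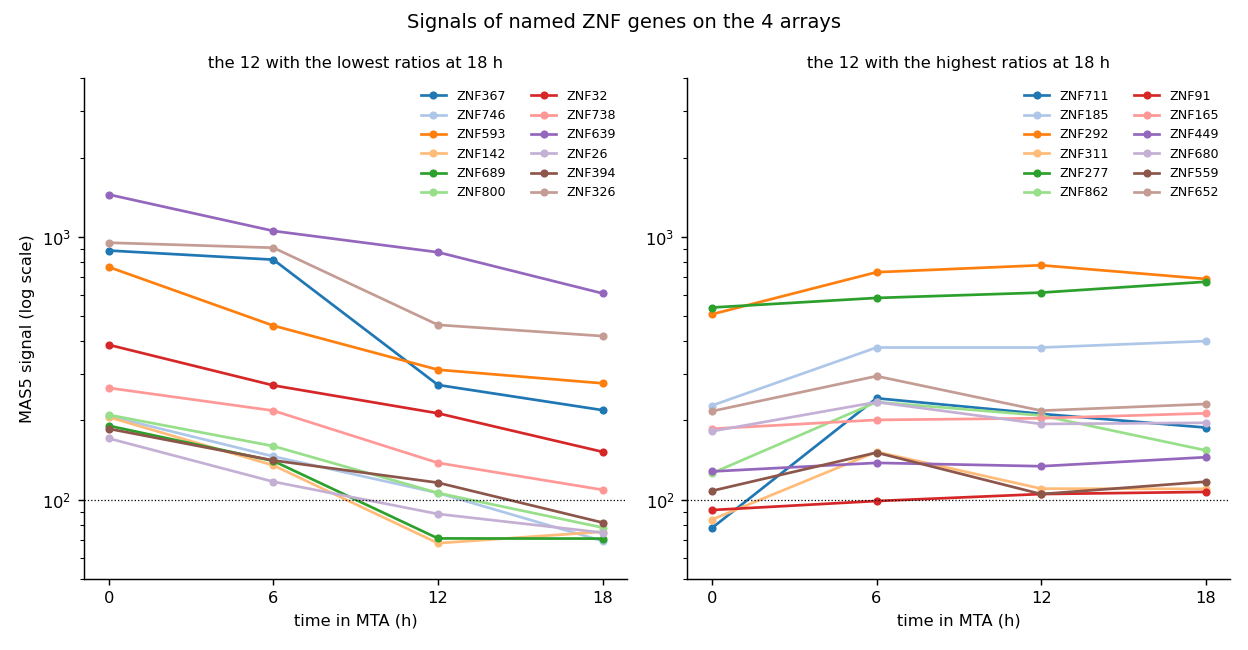
MAS5 signal (vertical axis, log scale) at 0, 6, 12 and 18 h of MTA (horizontal axis) of the 12 ZNF genes with the lowest (left) and the 12 with the highest (right) log2 ratio at 18 h whose shift had the same sign at 12 h, with a line for each gene and a dotted line at the floor of 100. ZNF367 stands at 818 at 6 h and at 273 at 12 h, and ZNF711 at 78 at 0 h and at 243 at 6 h.

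ZNF711 stood highest at all 3 times. ZNF711, an X‐linked C2H2 protein that binds gene promoters together with the histone demethylase PHF8 and is mutated in families with intellectual disability, had signals of 78.0, 243, 212 and 188 at 0, 6, 12 and 18 h, log2 ratios of 1.64, 1.44 and 1.27. All 3 MTA arrays were high and close to each other. Its signal at 0 h lay below the floor, and every ratio uses that 1 dim reading.

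ZNF185 and ZNF292 were brighter at 0 h. ZNF185, which despite its name is a LIM‐domain protein of the actin cytoskeleton, had 228, 379, 379 and 401, log2 ratios of 0.73, 0.73 and 0.82 and a shift of 1.34 at 18 h. The 3 MTA arrays were alike. ZNF292, a large zinc finger protein linked to a neurodevelopmental disorder, had 507, 733, 779 and 691, and 0.45 at 18 h, but 0.03 on its second probe set. ZNF277 had 538, 585, 613 and 674 on its brightest probe set, higher with each longer exposure. Its second probe set had 128, 168, 153 and 162, and was highest at 6 h. The ratios of these 2 probe sets at 18 h were 0.32 and 0.34.

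ZNF862, with 126, 235, 209 and 154, and ZNF311, with 84.0, 152, 110.1 and 109.9, were highest at 6 h. ZNF91, ZNF165, ZNF449, ZNF680, ZNF559 and ZNF652 completed the 12 highest, with log2 ratios from 0.23 to 0.09 and shifts from 0.75 to 0.62. ZNF91, a KRAB protein that silences SVA elements, had 91.3, 98.8, 105 and 107. ZNF165, a cancer/testis antigen, had 186, 201, 204 and 213. These 2 had almost flat signals, and their shift comes from the lower median of all genes. All 12 ratios at 18 h stayed above 0 in the 6 scalings, while at 12 h those of ZNF559 and ZNF652 changed sign.

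The promoters of ZNF367, ZNF593 and ZNF711 are shown because these genes lie at the ends of the order and because letters that E2F or cAMP response factors can bind occur in them. The 250 bases before the transcription start are from RefSeq, build GRCh38.p14, 5′ to 3′ along the gene: chr9:96418371-96418620 on the minus strand for ZNF367, chr1:26169658-26169907 on the plus strand for ZNF593 and chrX:85243741-85243990 on the plus strand for ZNF711. Capitals mark 4 kinds of motif on either strand, and motifs that overlap run together. The E2F motif was searched in 3 spellings. The first of them was TTTGGCG. Another spelling, which differs in the middle, was TTTCGCG. The remaining spelling used in the search was TTTCCCG. The core of the cAMP response element was spelled TGACGT. The CCAAT box was searched by the letters of its name, and the motif called the TATA box was spelled TATAAA.
ZNF367: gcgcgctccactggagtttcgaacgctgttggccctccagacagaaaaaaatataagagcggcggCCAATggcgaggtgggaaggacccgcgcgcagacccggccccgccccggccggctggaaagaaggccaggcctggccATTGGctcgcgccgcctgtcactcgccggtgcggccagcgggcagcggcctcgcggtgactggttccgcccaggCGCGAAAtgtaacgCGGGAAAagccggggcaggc
ZNF593: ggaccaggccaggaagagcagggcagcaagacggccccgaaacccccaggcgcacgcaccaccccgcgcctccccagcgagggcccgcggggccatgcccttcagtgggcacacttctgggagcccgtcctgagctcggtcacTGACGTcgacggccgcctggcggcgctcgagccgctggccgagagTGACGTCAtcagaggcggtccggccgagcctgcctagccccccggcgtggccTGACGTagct
ZNF711: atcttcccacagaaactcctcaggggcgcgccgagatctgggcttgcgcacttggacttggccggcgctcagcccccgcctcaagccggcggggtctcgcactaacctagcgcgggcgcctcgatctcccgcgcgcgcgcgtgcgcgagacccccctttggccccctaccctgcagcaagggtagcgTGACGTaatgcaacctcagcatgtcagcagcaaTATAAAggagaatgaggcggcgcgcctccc
The window of ZNF367 held 2 E2F motifs, from 34 to 28 and from 20 to 14 bases before the start, and 2 CCAAT boxes. That of ZNF593 held TGACGT at 3 places on its own strand, 1 of them overlapped by the same motif on the other strand. That of ZNF711 held TGACGT from 63 to 58 and TATAAA from 30 to 25 bases before the start. A match is a description of letters and not a bound site.

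Of the 112 genes 91 had a promoter in the table. ZNF711 was the only 1 of them (1.1%) with TATAAA in the window, against 11.1% of all 27305 promoters and 4.85% of those of 6654 other genes at the floor. E2F motifs were found in 12 (13.2%, against 6.21% of all promoters and 10.5% of the other genes at the floor) and TGACGT in 16 (17.6%, against 7.42% and 11.3%). The ETS motif CCGGAAG was found in 26 (28.6%, against 8.82% and 17.9%). CCAAT occurred in 41 (45.1%, against 33.0% and 36.2%), the GC box GGGCGG in 65 (71.4%, against 42.3% and 69.4%), and the E‐box CACGTG in 6 (6.59%, against 6.49% and 9.63%). The 26 ZNF genes with the ETS motif had a median log2 ratio of −0.19 at 18 h and the 65 without it −0.51. With and without the other motifs, these medians were −0.12 and −0.48 for the E‐box, −0.35 and −0.57 for the GC box, −0.36 and −0.51 for the CCAAT box, −0.38 and −0.41 for the E2F motif, and −0.53 and −0.39 for TGACGT. No test was made of these shares or medians.

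A list of ZNF genes with roles in RNA, ribosomes or the spindle had a median ratio at 18 h below that of all genes. This list of RNA, ribosome and spindle proteins held 10 genes, of which 9 were at the floor, with log2 ratios of median −0.21, −0.70 and −0.83 at the 3 times. Of these 9, 3 were below −1 at 18 h, where 17.3% of all genes were, none was above 1, where 1.51% were, and 2 were above the median of all genes. The list was chosen with earlier results of these data known and leaves out others that do not bind DNA, such as ZNF185.

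ZNF598, a ubiquitin ligase that marks collided ribosomes, had 254, 219, 157 and 115, a log2 ratio of −1.15 at 18 h. ZNF326, which links splicing with transcription elongation, had 949, 908, 462 and 419, and −1.18. Like ZNF367 it was nearly unchanged at 6 h and low at 12 and 18 h. ZNF622, a maturation factor of the large ribosomal subunit, had 441, 359, 271 and 258, and −0.78. ZNF330, a nucleolar protein, had 488, 420.4, 296 and 275, and −0.83. Together with ZNF593 and ZNF207, these 6 were lower at 12 h than at 6 h and lower at 18 h than at 12 h. ZNF106 of the same list had this order too, with log2 ratios of 0.01, −0.19 and −0.57, and ZNF277 and ZNF638 did not. The order was found in 74.6% of all genes. ZNF277 of the same list, described above, was higher with each longer exposure on its brightest probe set only. ZNF638, which silences unintegrated retroviral DNA, had a ratio at 18 h that rounds to 0, with 674 at 18 h and 675 at 0 h.

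Lists of KRAB repressors and of other DNA‐binding factors had medians slightly above that of all genes. Of 17 KRAB genes on the list 8 were at the floor, 1 of them (ZNF33A) outside the 112 because a letter follows its number, with a median of −0.37 at 18 h, 2 of them below −1 (ZNF746 and ZNF317), where 17.3% of all genes were, and none above 1, where 1.51% were. ZNF274, which binds the 3′ ends of ZNF genes and recruits SETDB1 there, had 189, 189.7, 182 and 185, and was flat on the 4 arrays. ZNF268 had 301, 384, 250.2 and 241, and ZNF189 had 288, 336, 234 and 217, both high on the 6 h array. The signs of the 18 h ratios of ZNF274, ZNF268 and ZNF189 depend on the scaling. ZNF317 had 175, 174, 107 and 85.1, a ratio of −1.04.

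Of 20 DNA‐binding factors outside the KRAB family 19 were measured and 12 were at the floor, with a median of −0.38 at 18 h. None was below −1, where 17.3% of all genes were, and none above 1, where 1.51% were. ZNF143, an activator of small nuclear RNA genes and many promoters, had 359, 542, 344 and 287, highest at 6 h. ZNF148, known as ZBP‐89, which binds GC‐rich promoters in gut epithelium, had 669.9, 607, 515 and 431. ZNF281, linked to pluripotency and epithelial plasticity, had 518, 562, 509.5 and 417. ZNF395 had 573, 676, 661 and 485, and ZNF703 had 517, 483, 479 and 368. Their ratios at 18 h lay between −0.64 and −0.24, and the median of all genes was −0.52. With the exception of ZNF148, their signs depend on the scaling.

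**Figure D4:**
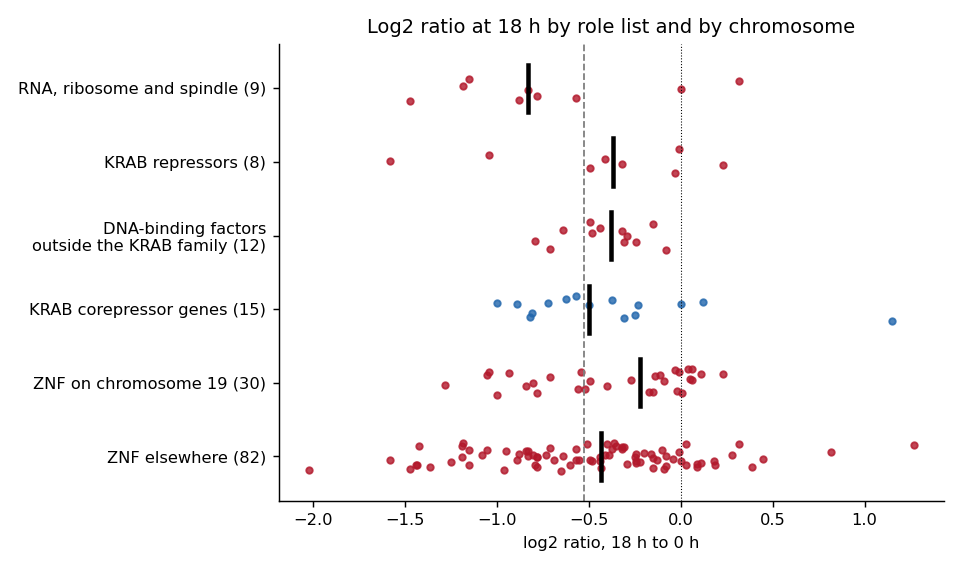
Log2 ratio at 18 h to 0 h (horizontal axis) of genes at the floor in 3 role lists of ZNF genes (red), in a list of KRAB corepressor genes (blue) and of ZNF genes on chromosome 19 and elsewhere (red), where points are genes, thick bars list medians and the dashed line the all‐gene median of −0.52, with a dotted line at 0. The bar of the RNA, ribosome and spindle list, −0.83, is the only one left of the dashed line.

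Genes through which KRAB proteins repress had mixed ratios. Of 17 on the list 15 were measured, and all 15 were at the floor, with a median of −0.50 at 18 h. None was below −1, where 17.3% of all genes were, and 1 was above 1, where 1.51% were. TRIM28, the corepressor that KRAB domains bind, had 1339, 1136, 869.5 and 671, a ratio of −1.0. SETDB1, which methylates histone H3 at lysine 9 for silencing, had 133, 101, 118 and 76.0, a ratio of −0.81. ATF7IP, the partner that stabilises SETDB1, was the only gene of the list above 1, with 193, 397, 383 and 429 and a ratio of 1.15. Its other 2 probe sets at the floor had 0.22 and 0.64 at 18 h, so the size of the difference depends on the probe set.

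Other zinc finger families, found by symbol and most of them C2H2, had medians close to those of the ZNF genes. Of 95 genes named ZFP, ZBTB, ZSCAN, ZKSCAN or KLF plus a number, 36 were at the floor, with log2 ratios of median 0.12, −0.34 and −0.40 at the 3 times, beside 0.11, −0.28 and −0.41 for the ZNF genes. Below −1 at 18 h were 3 of the 36, ZBTB2, ZFP36 and ZFP91, at −1.72, −1.36 and −1.04, where 17.3% of all genes were, and none was above 1, where 1.51% were. ZFP36 (tristetraprolin) has CCCH fingers, not C2H2 ones, and binds RNA.

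With the deposited scaling and the floor on the mean, the median ratio at 18 h of ZNF genes on chromosome 19 lay above that of ZNF genes elsewhere, by an amount that depended on the floor and on the probe sets. The 30 ZNF genes there (positions by RefSeq) had a median log2 ratio of −0.22 at 18 h and a range from −1.28 to 0.23, and the 82 elsewhere −0.43 and from −2.02 to 1.27. The 342 other genes on chromosome 19 had −0.62. At 6 h the medians of the ZNF genes were 0.12 and 0.11, and at 12 h −0.19 and −0.31. Smaller groups lay on both sides of chromosome 19 at 18 h. Their ZNF medians were −0.12, −0.04 and 0.50 on chromosomes 7, 6 and X. They were −0.35, −0.58 and −0.74 on chromosomes 12, 1 and 16. Below −1 at 18 h were 4 of the 30 (13.3%), namely ZNF738, ZNF146, ZNF317 and ZNF823, and 15 of the 82 (18.3%), against 22.2% of the other genes on chromosome 19 and 17.1% of other genes elsewhere. The genes on chromosome 19 were dimmer, with a median signal of 153 against 221. Among genes between 100 and 200 the medians were −0.22 on chromosome 19 and −0.40 elsewhere, over 22 and 34 genes. The difference of 0.21 between −0.22 and −0.43 was −0.04 without probe sets whose names end in _s_at or _x_at. It was 0.01 with the floor on the 0 h array alone, 0.05 with a floor of 50, 0.14 with a floor of 200, 0.15 with no floor and 0.30 with the floor on each array. Quantile normalization gave 0.11, and symbols with a letter after the number gave 0.11 too. These alternatives were applied to this difference after its value had been seen.

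Members that lie next to each other differed from one another too. In 8 pairs no other protein‐coding gene lies between both members, and their ratios at 18 h differed by a median of 0.79, where all pairs of the 112 genes differed by a median of 0.50. ZNF627 and ZNF823 on chromosome 19 had 0.06 and −1.0, and ZNF789 and ZNF394 on chromosome 7 had −0.10 and −1.19. ZNF680, ZNF107 and ZNF138, a run on chromosome 7, had 0.11, −0.01 and 0.09. The genes of this run were alike at 18 h, but all were read by _x_at probe sets, whose probes can also match related transcripts. ZNF84 and ZNF140 on chromosome 12 differed by 0.10 at 18 h, and had −0.31 and −0.74 at 12 h. A second probe set of ZNF84 had 0.25 at 18 h in place of −0.35. The 5 other pairs differed by 0.75 or more.

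Of the 4 ZNF genes on the X chromosome, 3 were among the 12 highest, ZNF711, ZNF185 and ZNF449, and the median of the 4 was 0.50 at 18 h. The remaining one, ZNF275, had −0.96. Without ZNF711, which passed the floor through its MTA arrays, the median was that of ZNF449, 0.18. The 262 other genes on that chromosome had −0.46. On chromosome 6 the median of 7 ZNF genes was −0.04, against −0.49 for 426 other genes, and 3 of the 7, ZNF165, ZNF292 and ZNF311, were among the 12 highest. Of these, ZNF311 had 84.0 at 0 h and passed the floor through its MTA arrays, so its place is partly set by the floor. ZNF292 had 0.03 at 18 h on its second probe set. On chromosome 7 the median of 12 ZNF genes was −0.12, against −0.53 for 374 other genes. There 3 genes were among the 12 highest and 3 among the 12 lowest. These chromosomes were picked after the values had been seen.

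Different probe sets of a gene give the only measure of error on these arrays. For 25 ZNF genes with at least 2 probe sets at the floor, the log2 ratio at 18 h of the brightest differed from that of the second with an SD of 0.41 and a median absolute difference of 0.21, and for 2832 other genes the values were 0.36 and 0.20. Both readings come from 1 culture, so the variation from culture to culture is not in this spread. In 3 of the 25 pairs (ZNF84, ZNF765 and ZNF791) the signs were opposite. The widest gap was in ZNF451, with −0.22 on its brightest probe set and −1.72 on the second.

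Genes with many probe sets show how far a single reading can be trusted. The 6 probe sets of ZNF148 had ratios at 18 h from −0.64 to 0.22, and 5 of them were below 0. Of the 5 of ZNF207, the 2 bright ones had −0.88 and −0.98, and the 3 dim ones −0.40, −0.15 and 0.11. ZNF12 had from −0.47 to −0.15 on 4 probe sets, ZNF654 from −0.63 to 0.16 on 4, and ZNF281 from −0.31 to 0.04 on 3. Probe sets whose names end in _x_at or _s_at can take up related transcripts, and transcripts of this family are alike in their finger regions, so the members are not wholly separate readings.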

How the data were processed

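RNA from RCM‐1 cells was measured on 4 Affymetrix GeneChip Human Genome U133 Plus 2.0 arrays, 1 for each time. The deposited values are linear signal intensities, 1 for each probe set, which the authors computed by MAS5 in Expression Console. Neither its version nor a target for scaling is named in the sources read. Control probe sets (62) were left out. Of 54613 others, 41091 had 1 gene symbol in the platform annotation of GEO, 1801 several and 11721 none, and 46 probe sets with several symbols, 1 of them a ZNF symbol, were not used. All 112 symbols were the same in the RefSeq table of GRCh38.p14. That table gave chromosomes and gene order, and the RefSeq promoter table of the same build gave sequences with their coordinates.

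Log2 ratios to 0 h kept the scaling of the deposited values, and no pseudocount was added. The floor was 100. A call was a log2 ratio beyond 1 (2‐fold), and 1.5 (2.83‐fold), the threshold of the study, was an alternative. Named were the 12 lowest and 12 highest genes at 18 h whose shift had the same sign at 12 h. The 6 brightest, the 6 with most probe sets, those at the edge of the floor, TRIM28 and SETDB1 were named as well. From each role list up to 6 genes were named, and ZNF106 and ZNF638 besides. Some adjacent members, genes whose probe sets differed in sign or most in size and, where counts were small, the genes counted were named too. The members and lists were chosen with earlier results of these data known. Alternatives were 5 other scalings, 5 other floors, 3 other choices of probe set, a pseudocount of 16 and 2 other rules for symbols. The calculation was tested on simulated data. Calculations ran in Python 3.11.15 with pandas 2.3.3, NumPy 2.4.6 and SciPy 1.17.1, and plots in matplotlib 3.10.9. Precision is limited by the 4 arrays.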

Additional observations from a re-analysis of the deposited data

How the results depend on the processing

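The distance of the ZNF median from that of the other genes kept its direction at 18 h. Over 16 alternatives it ran from 0.03 to 0.14 at 18 h, from −0.02 to 0.05 at 12 h and from −0.04 to 0.04 at 6 h, against 0.12, 0.04 and 0.04. The lowest value at 18 h, 0.03, came without _s_at and _x_at probe sets. It was below 0 at 6 h with quantile normalization, and at 12 h with that and with the floor on the 0 h array. A single factor per array leaves it as it is. The ZNF median itself depended on the scaling. At 18 h it was 0.12 with median centring, 0.09 with quantile normalization, 0.11 with division by the trimmed mean, −0.15 with poly‐A control scaling and −0.21 with no floor. At 12 h it was 0.04 with median centring and with division by the trimmed mean, and −0.01 with quantile normalization and with hybridization control scaling. At 6 h it was 0.03 with median centring and with the trimmed mean, −0.02 with quantile normalization, −0.09 with poly‐A control scaling and 0.15 with no floor. The medians of all genes move with these scalings by construction.

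Of the ZNF genes, 19 were below −1 at 18 h. This number was 2 with median centring (2.99% of all genes), 5 with quantile normalization (3.08%), 2 with the trimmed mean (3.07%) and 8 with poly‐A controls (7.88%). At a threshold of 1.5 it was 2 (3.18%). Other floors change the number of ZNF genes too. Below −1 were 7 of 56 with a floor of 200 (17.8% of all genes), 73 of 425 with no floor (18.8%) and 10 of 84 with the floor on each array (16.1%). The 1 gene above 1 became 2 with median centring (5.05%), 3 with quantile normalization (4.59%), 2 with the trimmed mean (4.96%) and 2 with poly‐A controls (2.73%). The count above 1 was 3 of 185 with a floor of 50 (2.33%) and 46 of 425 with no floor (14.1%). It was 0 of 56 with a floor of 200 (0.986%), 0 of 121 with the floor on the 0 h array (0.774%) and 0 of 84 with it on each array (0.879%). At a threshold of 1.5 it was 0 (0.449%). Of the 36 genes named for rank, brightness, number of probe sets or nearness to the floor, 7 had the other sign at 18 h under some setting, ZNF12, ZNF217, ZNF281, ZNF503, ZNF600, ZNF654 and ZNF664. Among genes named from the role lists, ZNF106, ZNF143, ZNF189, ZNF268, ZNF274, ZNF395, ZNF638 and ZNF703 changed sign over the scalings. No paired analysis was possible because each time has a single array, and for the same reason no array could be left out.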
